A study of Mus musculus with 3 samples.

Results

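Oligodendrocyte precursor cells (OPCs) were picked out of a single-cell RNA data set of the mouse nucleus accumbens by 4 marker genes, and 85 of 10291 cells were members. A cell was a member when it held at least 2 UMIs of Pdgfra, Cspg4, C1ql1 and Neu4 in sum, from at least 2 of these 4 genes, with 0 UMIs of the myelin genes Mog and Mag, 0 UMIs of the fibroblast genes Dcn and Col1a1 and at most 1 UMI of the neuronal genes Snap25 and Syt1. UMIs are short random barcodes, so that each captured RNA molecule adds 1 to the count. Measured values chose the members, so the levels of the genes in this gate are a description and none of them was tested.

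OPCs are dividing glia that spread through grey and white matter and give rise to myelinating oligodendrocytes. They are known for the PDGF receptor encoded by Pdgfra, the NG2 proteoglycan encoded by Cspg4, the transcription factors Olig1, Olig2 and Sox10, and glutamate receptors that serve synapses from neurons. On the way to myelination they leave the cell cycle, pass through a stage marked by the receptor Gpr17, lose Pdgfra and switch on myelin genes such as Mbp.

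All cells came from 3 samples of a single group of Thy1::ChR2 mice, in which the Thy1 promoter drives the light-gated channel ChR2 in neurons. The tissue was a coronal dissection of 400 um that carried FLiCRE, a recorder that turns calcium coinciding with light into transcription of a reporter, and the label was given during stimulation of ChR2. Every sample had been stimulated and labelled, so OPCs were compared with other cell classes of the same libraries and not with unstimulated tissue. Age, sex and the number of animals in a sample are not given in the sources used here. Nothing says whether the samples came from separate animals, so p-values measure the spread between these 3 libraries, which may be technical. Libraries are numbered by the suffix of their cell barcodes, which nothing ties to the numbered samples.

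The reference classes, each picked by its own gate, were 1440 mature oligodendrocytes, 542 astrocytes and 4341 neurons. Libraries 1 to 3 held 15, 41 and 29 OPCs among 2350, 6079 and 1862 kept cells. This is 0.638% (95% exact Clopper-Pearson interval 0.358% to 1.05%), 0.674% (0.484% to 0.914%) and 1.56% (1.05% to 2.23%), intervals that cover counting error only. The interval of library 3 lay above that of library 2 and overlapped that of library 1. A median OPC held 718, 1146 and 3015 UMIs in libraries 1 to 3, against 964, 2273.5 and 4325 in mature oligodendrocytes, and the part of depth in the share of gated cells was not tested. The summed OPCs held 17015, 57781 and 95993 UMIs, and 1 UMI was therefore worth 58.8, 17.3 and 10.4 CPM (a gene's UMIs scaled to 1000000 UMIs of its class in that library). A value of 58.8 CPM in library 1 rests on 1 molecule. Pairs of libraries shared 13, 7 and 22 barcode sequences, and 2 OPCs carried one of them.

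Among the gate genes, Pdgfra was detected in 74 OPCs, C1ql1 in 61, Cspg4 in 38 and Neu4 in 35. The pair Pdgfra and C1ql1 alone admitted 29 members, and Pdgfra and Cspg4 alone admitted 11. All 29 OPCs of library 3 held Pdgfra, with 36 of 41 in library 2 and 9 of 15 in library 1. To see a gate gene in cells it did not choose, each was read in cells that met the rule by the other 3. Held out in this way and pooled over libraries, Pdgfra was found in 72.5% of 40 cells. Its 95% exact interval of 56.1% to 85.4% covers counting error only and not the spread between libraries. In libraries 1 to 3 it was found in 3 of 9, 16 of 21 and 10 of 10 cells. Their median depths were 555, 1287 and 3763.5 UMIs. Pooled likewise, C1ql1 was found in 51.0% of 49, Cspg4 in 31.9% of 69 and Neu4 in 30.6% of 72. Mature oligodendrocytes held each of these genes in at most 0.556% of cells, at a median of 2051.5 UMIs.

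At the edge of the gate, 22 members held exactly 2 gate UMIs and 63 held more. Olig1 was detected in 86.4% of the former and 95.2% of the latter. Just outside, 128 cells with 1 gate UMI that met the other conditions held Olig1 in 35.2%, and those with 0 gate UMIs in 6.07%. Ptprz1 was found in 81.8%, 96.8%, 49.2% and 21.1%, and Tnr, Lhfpl3 and Gpr17 were likewise less frequent in members with exactly 2 gate UMIs than in the 63. Cspg5 (100% against 92.1%) and Fabp7 (90.9% against 85.7%) went the other way. Median depth was 1078.5 UMIs in the 22 members and 1598 in the 63, and its part was not tested. The gate thus left cells with Olig1 outside. Neither Olig1 nor Ptprz1 tells whether such cells were OPCs. Mature oligodendrocytes held Olig1 at 427 to 586 CPM, and astrocytes held Ptprz1 at 788 to 1030 CPM. The exclusions remove neither astrocytes nor oligodendrocytes with 0 UMIs of Mog and Mag. A further 23 cells passed the 4 genes but failed an exclusion, 13 of them on Snap25 and Syt1.

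OPC sums were read against 7 lists of 10 markers of other cell types. Mog and Mag were at 0 by the rule, and Opalin, another marker of mature oligodendrocytes, was at 0 too, while the summed level of that list was 2351, 1506 and 635 CPM in libraries 1 to 3 (7 of 10 genes detected, 2.28% of the level in mature oligodendrocytes). Astrocyte markers summed to 588, 1229 and 1167 CPM (8 of 10 detected, 4.39% of the level in astrocytes, Gja1 and Gjb6 at 0), neuron markers to 470, 1004 and 365 CPM (9 of 10, 4.92% of the level in neurons, Rbfox3 at 0) and endothelial markers to 529, 952 and 646 CPM (8 of 10, 1.91% of the level in endothelial cells, Flt1 and Pecam1 at 0). Microglia markers summed to between 58.8 and 312 CPM (6 of 10, 0.403% of the level in microglia, Cx3cr1 and P2ry12 at 0) and fibroblast markers to between 235 and 469 CPM (4 of 10).

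Mural markers reached 1175 CPM in library 1 against 34.6 and 0 CPM in libraries 2 and 3. In library 1, a single member with 1301 UMIs held 6 of 10 mural markers and 12 of the 13 Vtn UMIs beside 1 UMI each of Pdgfra and C1ql1. Another member of library 1, with 3252 UMIs, held 15 of its 17 Gpr17 UMIs, with 0 UMIs of Pdgfra. No other member held more than 4 Gpr17 UMIs. The 3 comparisons were repeated without these 2 cells, a choice made after the data were seen. Without them the mural sum of library 1 was 0 CPM and its oligodendrocyte sum 1685 CPM.

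Against mature oligodendrocytes, the cells OPCs give rise to, 1127 of 4766 genes differed (edgeR quasi-likelihood test with the library as block, Benjamini-Hochberg adjusted p under 0.05). That is 23.6% of the genes tested, with 513 higher in OPCs (10.8%) and 614 lower (12.9%), and 1086 of the calls had the same direction of CPM in all 3 libraries. Without the 2 cells of library 1 the count was 1045, of which 1022 were among the 1127, and all 1085 of the original calls still tested kept their sign. Leaving out a whole library left the edgeR fit 2, 141 and 0 genes, while DESeq2 called 510, 335 and 179 and the edgeR fit with all 4 classes 1126, 1377 and 517 (without library 1, 2 and 3). The gene lists below were chosen with earlier results of these data known, so their counts describe them and are set against the shares just given. In all 3 comparisons the filter on low counts admits a gene low in 1 class only through high sums of the other. The direction of such a gene was set by the filter. Counts and medians of lists that hold such genes are therefore no results about those lists.

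Genes known from OPCs formed a list of 30, of which 28 were tested against mature oligodendrocytes. Of these, 23 rose and 0 fell, with a median log2 fold change of 4.20 against -0.09 over all genes tested. Members low in mature oligodendrocytes, such as Gpr17 and Emid1 (means of 6.41 and 2.24 CPM), passed the filter on low counts only through high OPC sums. That set their direction, so the count and the median are no result about the list. Olig1 and Olig2, basic helix-loop-helix factors of the lineage, and the matrix and membrane genes Ptprz1, Cspg5, Vcan and Tnr were among those that rose. Sox10, Nkx2-2, Sox8, Lrrn1 and Kcnk1 did not pass.

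Olig1 stood at 2233, 2804 and 2834 CPM in OPCs and at 522, 427 and 586 CPM in mature oligodendrocytes. The groups did not overlap. OPCs were higher by 1.96 ± 0.27 (log2 fold change ± SE, edgeR adjusted p = 0.000479). Olig2, its partner gene, was at 294, 692 and 792 CPM against 119, 73.2 and 167 CPM (2.09 ± 0.37, edgeR adjusted p = 0.00229). In library 1 Olig2 was lowest, yet every OPC value exceeded every oligodendrocyte value. Sox10, which acts in precursors and myelinating cells alike, was at 529, 260 and 385 CPM against 300, 157 and 260 CPM, and its difference of 0.27 ± 0.27 did not pass (edgeR adjusted p = 0.536). By CPM each library's OPCs lay above its own oligodendrocytes, but CPM lack the scaling between sums that the fit applies.

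**Figure D1:**
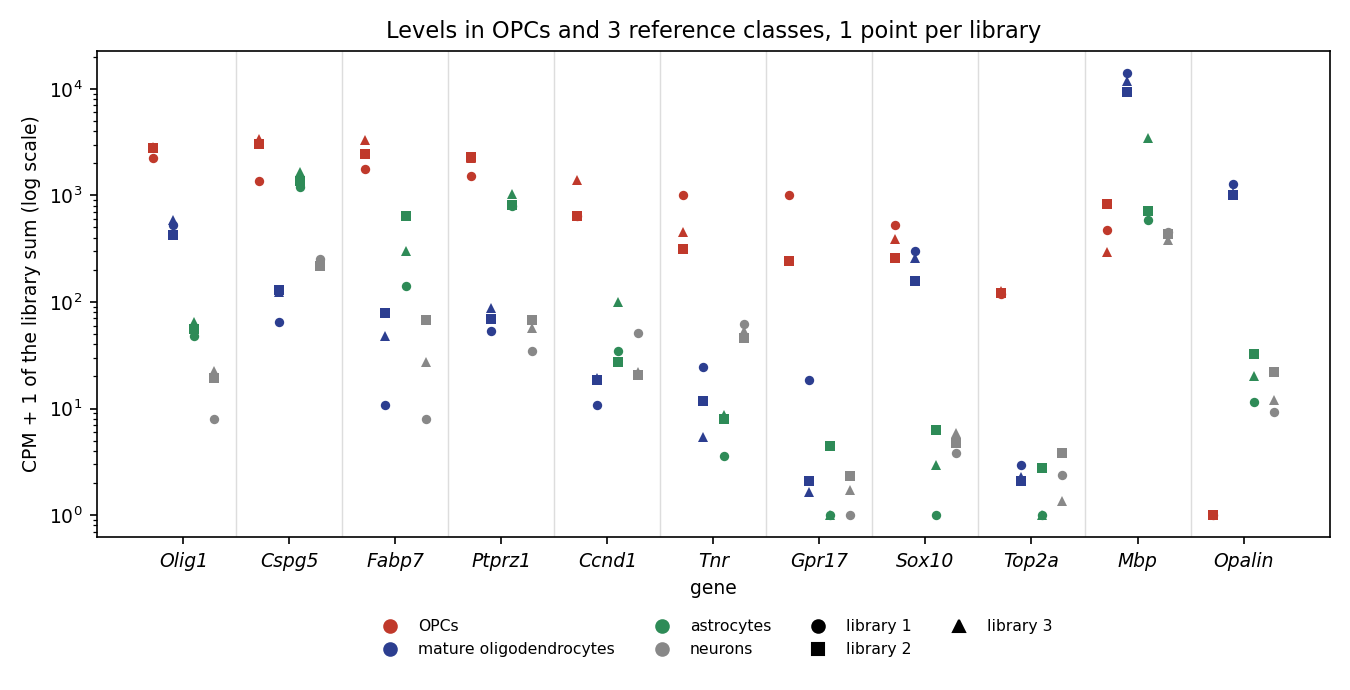
Level of 11 genes (CPM + 1, log axis) in OPCs and the 3 reference classes, 1 point per library, with colour for class and shape for library. Olig1 lies at 2233 to 2834 CPM in OPCs and at 427 to 586 CPM in mature oligodendrocytes, Sox10 overlaps between them, and Opalin has 0 UMIs in OPCs.

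Ptprz1, a receptor phosphatase that also exists as a secreted proteoglycan, had 1528, 2284 and 2240 CPM in OPCs and at most 85.9 CPM in any oligodendrocyte sum (log2 fold change 4.48 ± 0.27, edgeR adjusted p = 5.39e-06). Cspg5, the proteoglycan neuroglycan C, had 1352, 3046 and 3386 CPM against at most 129 CPM (4.22 ± 0.28, edgeR adjusted p = 6.08e-06). For both genes library 1 was the lowest of the OPC sums, and none of them came near an oligodendrocyte value. Fabp7, a lipid-binding protein of glial precursors, had 1763, 2440 and 3344 CPM against 9.73, 78.1 and 47.1 CPM (5.46 ± 0.36, edgeR adjusted p = 6.21e-06). Ccnd1, the G1 cyclin D1, had 646, 640 and 1386 CPM against 9.73, 17.6 and 18.5 CPM (5.42 ± 0.33, edgeR adjusted p = 5.39e-06). Libraries 1 and 2 were alike for Ccnd1, and library 3 was the highest.

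Gpr17, a receptor of precursors about to differentiate, was at 999, 242 and 240 CPM in OPCs and at 17.5, 1.07 and 0.637 CPM in mature oligodendrocytes (log2 fold change 6.29 ± 0.53, edgeR adjusted p = 2.21e-05). Library 1 was far above the other two. Without the 2 cells named above, its value was 160 CPM and the log2 fold change 5.79 ± 0.72 (edgeR adjusted p = 8.31e-05).

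Transcription factors of the lineage formed a list of 30, of which 21 were tested. Of these, 8 rose and 9 fell. Beside Olig1 and Olig2, those that rose were Sox4, Sox5, Sox6, Sox11, Sox2 and the Notch target Hes5. Sox6, which is known to hold precursors back from differentiation, had 235, 208 and 250 CPM against 19.5, 4.81 and 4.46 CPM (4.68 ± 0.50, edgeR adjusted p = 0.000106). Sox5, its close relative, had 176, 121 and 146 CPM against 0, 3.21 and 5.09 CPM (4.89 ± 0.52, edgeR adjusted p = 7.68e-05). In each of the 3 libraries OPCs held both genes at values above every oligodendrocyte sum.

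Among the 9 lineage factors that fell were Myrf, Nkx6-2, Prox1, St18 and Zeb2. Myrf, which drives myelin genes, was at 118, 17.3 and 10.4 CPM in OPCs and at a mean of 141 CPM in mature oligodendrocytes (log2 fold change -2.80, edgeR adjusted p = 0.00258). Nkx6-2 had 2 UMIs in OPCs and 2797 in mature oligodendrocytes, a pooled level 60.4 times higher in the latter (95% exact counting interval 16.7 to 499). Prox1 and St18 had 0 UMIs in OPCs, which were at least 5.14-fold and 2.55-fold lower (floor of 3 UMIs over the class). Zeb2 fell by 0.96 on the log2 scale (edgeR adjusted p = 0.0469), and by 1.02 without the 2 cells of library 1 (edgeR adjusted p = 0.0507).

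Of 27 myelin genes 23 were tested, and 22 of them were lower in OPCs. The median log2 fold change was -5.47, or -5.07 with 2 genes of 0 OPC UMIs at their bound. Myelin genes had picked both classes, by absence of Mog and Mag in OPCs and by Mog, Mag, Ermn and Cldn11 in the reference. Members near 0 in OPCs, such as Mal and Aspa, also passed the filter on low counts only through the oligodendrocyte sums. The count of 22 of 23 is thus no result about the list. Mbp, myelin basic protein, was at 470, 831 and 292 CPM against 14113, 9400 and 11744 CPM (log2 fold change -4.88 ± 0.42, edgeR adjusted p = 2.36e-05). Library 2 was the highest OPC sum for Mbp, yet it lay far below each oligodendrocyte sum.

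Opalin, a membrane protein of mature oligodendrocytes, had 0 UMIs in OPCs and 1265, 1015 and 1059 CPM in mature oligodendrocytes, which is at least 60.6-fold lower in OPCs (floor of 3 UMIs over the class). Hapln2, a link protein of nodes of Ranvier, was at least 23.8-fold lower, Lpar1, a lysophosphatidic acid receptor, at least 11.2-fold, and Cntn2, the contactin of the juxtaparanode, at least 7.46-fold. Gjc3, a glial connexin, was the tested member of the list that did not pass. It was at 58.8, 260 and 260 CPM in OPCs and 257, 197 and 185 CPM in mature oligodendrocytes (-0.18 ± 0.38, edgeR adjusted p = 0.78). Gal3st1, which makes the myelin lipid sulfatide, passed with 353, 121 and 156 CPM against 259, 260 and 321 CPM (-1.12 ± 0.33, edgeR adjusted p = 0.0313), although library 1 was above its own oligodendrocytes.

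**Figure D2:**
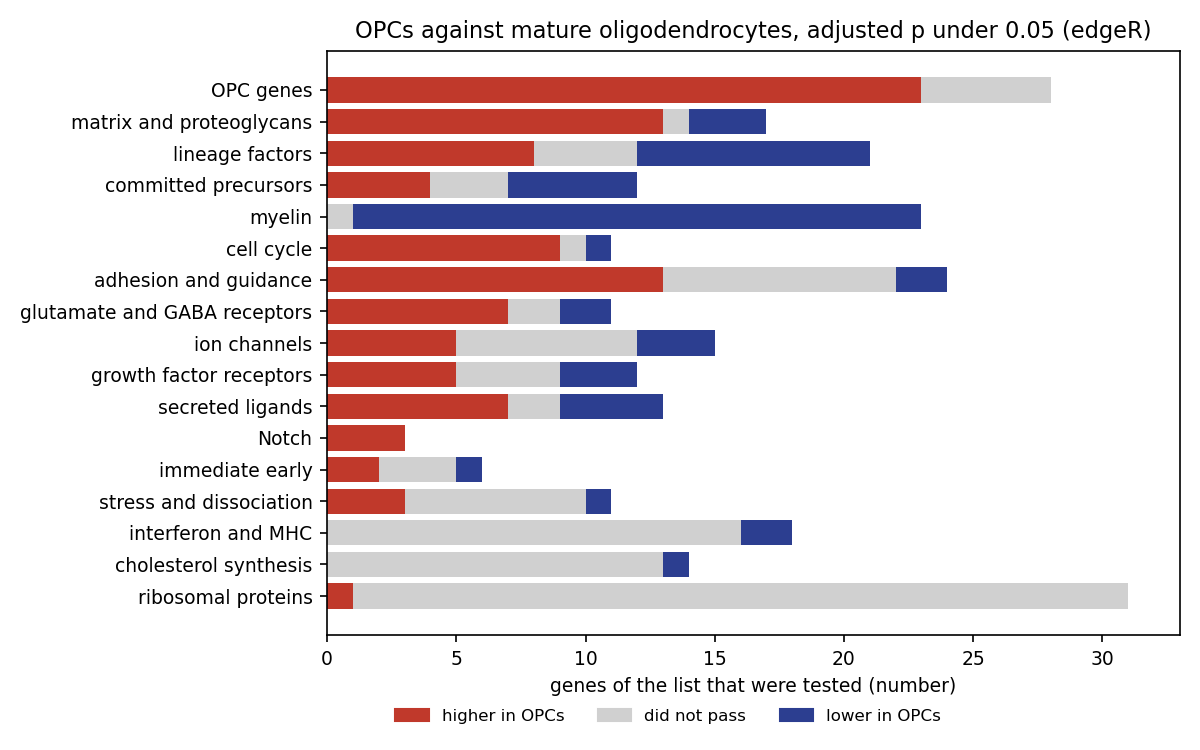
Number of tested genes of each list that were higher in OPCs, lower in OPCs or did not pass against mature oligodendrocytes (edgeR, adjusted p under 0.05). All but 1 of 23 myelin genes are lower, 23 of 28 OPC genes are higher, and 1 of 31 ribosomal protein genes passes. The bars are a description, as the filter on low counts admitted genes low in 1 class only through the other. Myelin genes also picked the classes.

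Genes of committed precursors moved both ways: of 12 tested out of 22, 4 rose and 5 fell. Those that rose were Gpr17, Fyn, Itpr2 and Lims2, and Fyn and Itpr2 are known from cells entering differentiation. Fyn, a kinase of the myelinating path, had 823, 242 and 292 CPM against 83.7, 56.1 and 74.5 CPM (1.95 ± 0.29, edgeR adjusted p = 0.000827). The high value in library 1 was 401 CPM without the 2 cells, with a log2 fold change of 1.67 ± 0.32. Enpp6, a mark of newly formed oligodendrocytes, had a UMI in 0 of 85 OPCs, which allows a share of up to 3.53% of cells with a UMI at this depth, and was at 53.8 CPM on average in mature oligodendrocytes. Bcas1, another early myelinating gene, was at 764, 156 and 104 CPM against 247, 168 and 281 CPM and did not pass (-0.50 ± 0.44, edgeR adjusted p = 0.476).

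Cell by cell, 29 of 85 OPCs held a UMI of Gpr17, Bmp4 or Enpp6. All of these held Gpr17, 25 of the 29 also held Pdgfra, and Bmp4 was found in 2. In libraries 1 to 3, 3 of 15, 12 of 41 and 14 of 29 OPCs held Gpr17, an order that follows their median UMIs of 718, 1146 and 3015. Bcas1 was found in 18 OPCs, that is 3 of 15, 9 of 41 and 6 of 29 cells in the 3 libraries. The part of depth in these shares was not tested.

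The matrix list held 31 genes, of which 17 were tested, 13 rose and 3 fell. Members low in mature oligodendrocytes, such as Vcan, were again admitted only through high OPC sums. The proteoglycan core proteins Vcan, Bcan and Ncan, and Ptprz1 and Cspg5 which stand in this list too, rose together with the matrix genes Tnr, Matn4, Spon1, Sdc3, Sulf2, Sparcl1 and Timp4 and the chondroitin sulfotransferase Chst11. Vcan, or versican, was at 294, 277 and 260 CPM in OPCs and at 9.73, 3.21 and 8.27 CPM in mature oligodendrocytes (5.02 ± 0.45, edgeR adjusted p = 3.16e-05). Its OPC values were nearly level over the libraries, far above every oligodendrocyte sum. Tnr, or tenascin-R, was at 999, 312 and 448 CPM against 23.4, 10.7 and 4.46 CPM (5.14 ± 0.39, edgeR adjusted p = 1.37e-05), and library 1 kept 722 CPM without the 2 cells. Those that fell were Hapln2, Sparc and Adamts4.

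Glutamate and GABA receptor genes and their partners formed a list of 34. Few passed the filter on low counts, 11, of which 7 rose and 2 fell against mature oligodendrocytes. Members low in mature oligodendrocytes, such as Cacng4, passed it only through high OPC sums. Among those that rose were the AMPA receptor subunits Gria2, Gria3 and Gria4, the AMPA receptor auxiliary subunit Cacng4, the metabotropic receptor Grm5 and the synaptic adhesion gene Nlgn3. Gria2 was at 705, 848 and 823 CPM in OPCs and at 64.2, 188 and 80.8 CPM in mature oligodendrocytes (2.52 ± 0.30, edgeR adjusted p = 0.000217). Cacng4 was at 235, 225 and 490 CPM against 5.84, 7.49 and 6.37 CPM (5.23 ± 0.41, edgeR adjusted p = 1.5e-05). Neither gene overlapped between the classes.

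Of 35 ion channel genes 15 were tested against mature oligodendrocytes, with 5 higher and 3 lower in OPCs. The sodium channels Scn1a and Scn3a, the A-type potassium channel Kcnd2 with its partner Kcnip3, and the leak channel Kcnk2 were higher. Kcnip3 had 176, 242 and 250 CPM against 15.6, 33.7 and 24.8 CPM (2.80 ± 0.34, edgeR adjusted p = 0.000209). Kcnk2 had 0 UMIs in library 1 and 208 and 271 CPM in the others (2.68, edgeR adjusted p = 0.0023). Kcna1, Kcna6 and Hcn2 were lower.

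Adhesion and guidance genes numbered 38 in the list and 24 in the test, with 13 higher and 2 lower. Here too, members low in mature oligodendrocytes, such as Dscam (mean of 3.38 CPM), were tested only because their OPC sums were high. Opcml, Lsamp and Ntm, cell-surface proteins of the IgLON family, all rose, as did Cntn1, Lrrtm3, Dscam, Sema3d, Pcdh15 and Nrxn2. Opcml was at 353, 900 and 354 CPM against 25.3, 40.1 and 14.0 CPM (4.06 ± 0.32, edgeR adjusted p = 1.51e-05). Cntn1, or contactin 1, was at 764, 519 and 604 CPM against 37.0, 87.7 and 39.5 CPM (3.10 ± 0.33, edgeR adjusted p = 0.000109). The highest Opcml value was in library 2 and the highest Cntn1 value in library 1. Efnb3 and Ephb1, an ephrin and an ephrin receptor, fell.

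**Figure D3:**
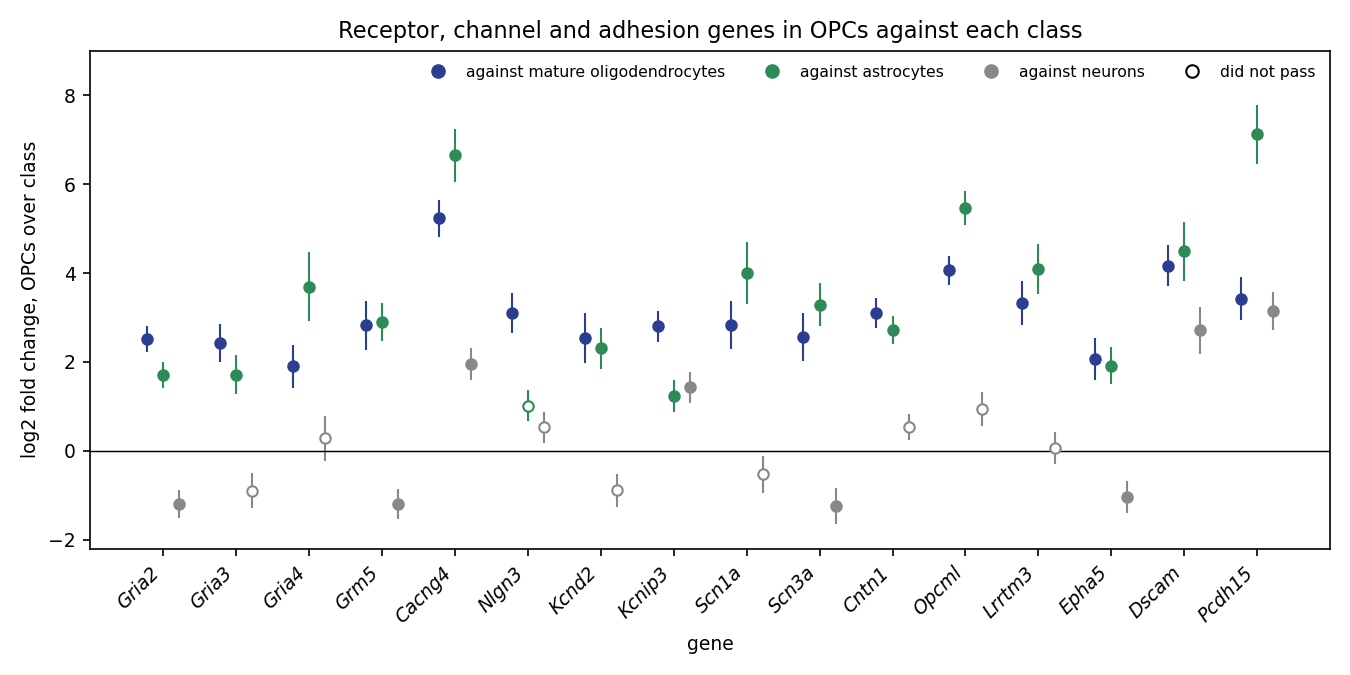
Log2 fold change of OPCs over mature oligodendrocytes, astrocytes and neurons for 16 receptor, channel and adhesion genes that passed against mature oligodendrocytes. Bars are 1 SE derived from the edgeR F statistic, and circles are open where the adjusted p missed 0.05. Against neurons Gria2 lies at -1.19 and Cacng4 at 1.96, and Dscam and Pcdh15 lie above 0 against all 3 classes. Without the 2 cells of library 1, the calls of Gria4 and Kcnip3 against astrocytes, Gria4 against mature oligodendrocytes, and Grm5, Scn3a and Epha5 against neurons were lost, and Opcml passed against neurons.

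Among 30 growth factor and related receptors, 12 were tested, 5 rose and 3 fell. Ntrk3, Ntrk2, the endothelin receptor Ednrb, Gpr37l1 and Tnfrsf21 rose, and Fgfr2, Gpr37 and Il1rap fell. Ednrb, which binds endothelin, was at 176, 242 and 396 CPM against 21.4, 16.6 and 15.9 CPM (3.74 ± 0.40, edgeR adjusted p = 0.000104). Secreted factors gave 13 tested of 37, with 7 higher and 4 lower. Ptn and Mdk, the related growth factors pleiotrophin and midkine, rose with Serpine2, Scrg1, Bmp7, C1ql3 and Timp4.

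Mdk was at 118, 242 and 198 CPM in OPCs and at a mean of 12.1 ± 2.73 CPM (SD, n = 3) in mature oligodendrocytes (3.72 ± 0.39, edgeR adjusted p = 9.4e-05). Pdgfa, the ligand of the receptor in the gate, ran the other way. It was at 0, 34.6 and 31.3 CPM in OPCs and at 257, 169 and 293 CPM in mature oligodendrocytes (log2 fold change -3.42 ± 0.51, edgeR adjusted p = 0.000445). Apoe, Fgf1 and Spock3 also fell. Apoe, a lipid carrier, was at 1234, 3029 and 1313 CPM against 3996, 3852 and 2238 CPM (-1.25 ± 0.33, edgeR adjusted p = 0.0182). OPCs of library 2 held more Apoe than the oligodendrocytes of library 3, but each library's OPCs lay below its own oligodendrocytes.

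Of the Notch list of 17 genes 3 were tested, and these rose (Hes5, Hey1 and Dner). The others missed the filter on low counts, such as Hes6 with 58.8, 86.5 and 31.3 CPM in OPCs. A gene low in mature oligodendrocytes passes this filter only if every OPC sum is high. The count of 3 is thus no result about the list. Hes5, a target of Notch signalling, spread from 58.8 to 658 CPM over libraries (4.05 ± 0.45, edgeR adjusted p = 0.000134). Cholesterol synthesis gave 0 higher and 1 lower of 14 tested out of 20, which was Sc5d. Genes of interferon response and antigen presentation gave 0 higher and 2 lower of 18 tested out of 22, Ifi27l2a and Ifit3. Ribosomal protein genes gave 1 of 31, Rpl13, with 6230, 3167 and 5323 CPM against 1668, 1379 and 1659 CPM (1.15 ± 0.23, edgeR adjusted p = 0.00399).

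Immediate early genes were mostly too low to test in OPCs. Of 21, 6 were tested, Fos and Dusp1 rose and Jund fell. Fos was at 118, 277 and 542 CPM in OPCs and at 37.0, 114 and 129 CPM in mature oligodendrocytes (1.41 ± 0.30, edgeR adjusted p = 0.00672). It was highest in library 3 in both classes. Of 17 genes of stress and tissue dissociation 11 were tested, and Fos, Dusp1 and the chaperone Hspa5 rose while Hsp90aa1 fell. Without the 2 cells of library 1 the lists lost the calls of Dusp1, Timp4, Gria4, Il1rap, Tyms, Zeb2, Afap1l2 and the astrocyte marker Aldoc against mature oligodendrocytes and gained none. Of these, Timp4, Gria4, Tyms and Afap1l2 were no longer tested. The part of dissociation in the Fos difference was not tested.

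Most cell-cycle genes that could be tested were higher in OPCs than in each reference class. Of 34 listed genes 11 were tested against mature oligodendrocytes, 9 rose and Stmn1, which is not confined to dividing cells, fell. A stricter set of 18 genes of DNA replication and mitosis had 5 tested members, and all 5 rose (Top2a, Cdk1, Birc5, Cenpf and Rrm2). The median log2 fold change of these 5 was 5.49. Their means in mature oligodendrocytes ran from 0.356 CPM (Rrm2) to 5.05 CPM (Cenpf). The filter on low counts admits such genes only through high OPC sums. Their direction was thus set by the filter, and 5 of 5 is no result about the set. Other members, such as Ube2c (294, 138 and 20.8 CPM in OPCs) and Mki67, were not tested. Top2a, a topoisomerase of replicating cells, was at 118, 121 and 125 CPM in OPCs and at 1.95, 1.07 and 1.27 CPM in mature oligodendrocytes (6.05 ± 0.46, edgeR adjusted p = 6.02e-06). Cdk1, the mitotic kinase, was at 176, 138 and 83.3 CPM against 0, 4.81 and 0 CPM (5.49 ± 0.71, edgeR adjusted p = 0.000216). The OPC values rest on 2, 7 and 12 UMIs of Top2a and 19 UMIs of Cdk1 in all.

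Most of these molecules came from few cells. Only 11 of the 85 OPCs, 2, 5 and 4 in libraries 1 to 3, held at least 2 of the 18 genes, and they held 150 of the 158 UMIs of the set. Their median depth was 2421 UMIs against 1310 in the other 74. One cell of library 3 held 16 of the 18 genes. Cdk1 and Cenpf were found in 10 OPCs each, Birc5 in 8, Top2a and Rrm2 in 7 each, and Mki67, a common mark of proliferation, in 2. Of the 11 cells 9 held Pdgfra and 3 held Gpr17, and of the other 74 Gpr17 was found in 26.

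**Figure D4:**
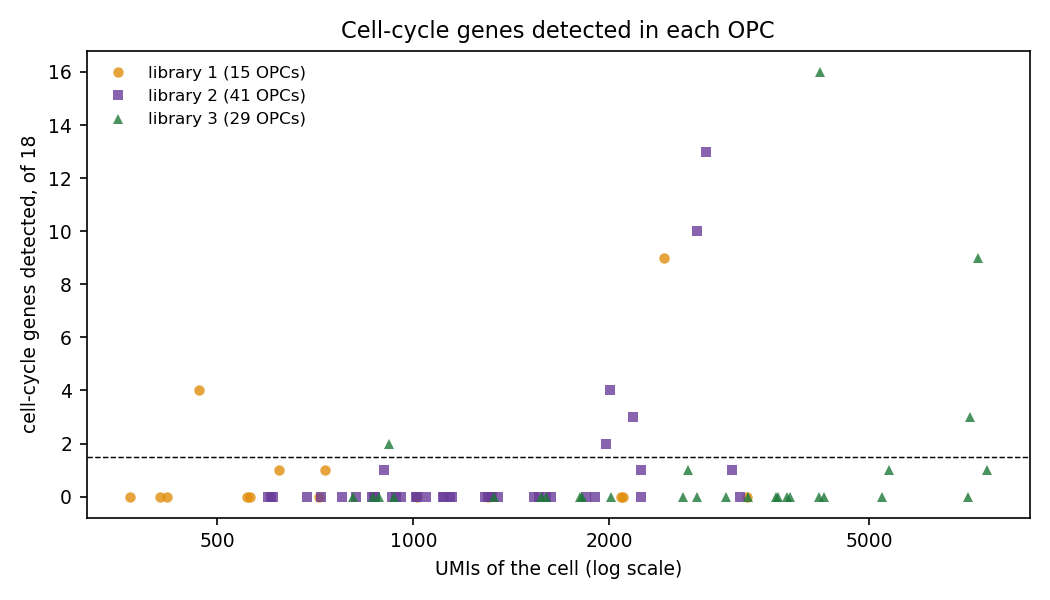
Number of the 18 strict cell-cycle genes detected in each of the 85 OPCs against the UMIs of the cell (log axis), by library. The 11 cells above the dashed line hold 2 or more of the genes, from 469 to 7361 UMIs, and 2, 5 and 4 of them come from libraries 1 to 3.

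To compare cells at equal depth, they were thinned to 1000 UMIs, which left 6, 27 and 24 OPCs and dropped 28. Then 16.7%, 14.8% and 8.33% of OPCs held at least 2 of the 18 genes, a mean of 13.3% ± 4.38 (SD, n = 3 libraries). The share was 0.0552% in mature oligodendrocytes, 0% in astrocytes (0 of 476 cells, which allows up to 0.630%) and 0.0229% in neurons. OPCs were higher in all 3 libraries against each class, and the two-sided exact sign-flip permutation test gave p = 0.25, the smallest that 3 libraries allow (0.25 adjusted over 3 comparisons). Without thinning, 13.1% ± 0.823 of OPCs held 2 or more. At 500 UMIs the share was 6.62%. Microglia, read in the same way at 1000 UMIs, had 3.82% ± 1.32, so cells with these genes were not restricted to OPCs.

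Promoters of the strict set are shown as a description. Only 5 of its 18 genes were tested against mature oligodendrocytes, and the filter on low counts set their direction. Mitotic genes are known for CCAAT boxes, bound by the factor NF-Y, and for the cell-cycle homology region with the letters TTTGAA, bound by the DREAM complex. The 250 bases before the annotated start were taken from RefSeq (GRCm38.p6, the build named mm10), which held 15 of the 18 genes. CCAAT, searched on both strands, was in 13 of these 15 (86.7%) and in 34.5% of 27025 promoters of the same length. TTTGAA, searched likewise, was in 6 of 15 (40.0%) against 16.3%, and both were in 6 of 15 against 5.73%. Both motifs were chosen with the results known. A CCAAT match and a TTTGAA match can share at most 1 base, and a match describes the letters and not a bound site. Of the 5 members that passed against mature oligodendrocytes, Top2a (chr11:99024190-99024439, minus strand) and Cdk1 (chr10:69352913-69353162, minus strand) held both motifs, and Birc5 (chr11:117848987-117849236, plus strand) held neither in this window. Each is printed 5′ to 3′ on the strand of its gene, with CCAAT or ATTGG and TTTGAA or TTCAAA in capitals.
Top2a: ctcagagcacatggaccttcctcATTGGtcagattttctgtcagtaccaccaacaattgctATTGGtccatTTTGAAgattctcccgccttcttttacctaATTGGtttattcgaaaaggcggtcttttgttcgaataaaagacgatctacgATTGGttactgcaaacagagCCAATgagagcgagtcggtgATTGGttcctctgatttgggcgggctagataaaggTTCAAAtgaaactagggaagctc
Cdk1: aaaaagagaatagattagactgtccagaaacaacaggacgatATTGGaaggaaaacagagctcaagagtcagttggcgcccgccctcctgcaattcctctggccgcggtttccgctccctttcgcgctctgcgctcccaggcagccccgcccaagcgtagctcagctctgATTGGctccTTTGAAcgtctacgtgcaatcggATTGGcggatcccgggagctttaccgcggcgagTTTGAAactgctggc
Birc5: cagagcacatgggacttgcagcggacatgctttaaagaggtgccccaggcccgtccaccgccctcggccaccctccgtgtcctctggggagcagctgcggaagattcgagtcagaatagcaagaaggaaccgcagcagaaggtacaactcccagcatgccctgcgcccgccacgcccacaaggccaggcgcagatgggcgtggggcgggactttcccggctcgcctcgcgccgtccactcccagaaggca
Top2a held 6 CCAAT and 2 TTTGAA matches, and Cdk1 held 3 and 2.

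By size of change against mature oligodendrocytes, cell-cycle genes came first. The genes named in this paragraph were low in mature oligodendrocytes and passed the filter on low counts only through high OPC sums. Their direction was thus set by the filter, and their place in the ranking is a description. Rrm2, a subunit of ribonucleotide reductase, had 23 UMIs in OPCs and 2 in mature oligodendrocytes, and Pbk, a mitotic kinase, had 30 and 3. Their pooled levels were 266 times (95% exact counting interval 65.8 to 2330) and 232 times (72.0 to 1186) higher in OPCs. Emid1, an extracellular protein gene, was at 58.8, 398 and 250 CPM against 1.95, 1.60 and 3.18 CPM (6.53 ± 0.51, edgeR adjusted p = 9.8e-06). Nxph1, a secreted ligand of neurexins, was at 58.8, 398 and 354 CPM against 0, 4.81 and 2.55 CPM (6.35, edgeR adjusted p = 6.02e-06). In library 1 both of these rest on 1 UMI, as do Rrm2 and Pbk above and Fzd9 and 2810417H13Rik below. Spc24, a kinetochore protein, had 22 and 2 UMIs (255 times, 62.6 to 2235), and Fzd9, a Wnt receptor, 16 and 3 (124 times, 35.4 to 661). The PCNA-associated factor 2810417H13Rik was higher by a log2 fold change of 6.76 ± 0.66 (edgeR adjusted p = 2.97e-05).

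Against astrocytes, glia of another lineage, 906 of 4059 genes differed (22.3%), 395 higher in OPCs (9.73%) and 511 lower (12.6%). This comparison shares the OPC sums with the one above, so the 2 are not independent. Without the 2 cells of library 1, 862 genes passed, of which 786 were among the 906, and the share higher in OPCs moved from 43.6% to 32.1% as the median log2 fold change of all genes tested moved from -0.08 to -0.30. At most 10% mitochondrial UMIs gave 528 genes, and leaving out libraries 1, 2 and 3 gave 539, 0 and 0.

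OPC genes split in this comparison. Of 28 tested 21 rose and 2 fell, and Ptprz1, Cspg5, Ednrb, Tmem100 and Afap1l2 did not pass. Ptprz1 was at 788, 809 and 1030 CPM in astrocytes, below every OPC value, with a log2 fold change of 0.82 ± 0.29 (edgeR adjusted p = 0.0775). Cspg5 was at 1204, 1370 and 1669 CPM in astrocytes and overlapped OPCs (0.45 ± 0.34, edgeR adjusted p = 0.384). Gpr37l1 was lower in OPCs (-1.57 ± 0.30, edgeR adjusted p = 0.00785), as was Kcnk1. Sox10, which had not passed against mature oligodendrocytes, was at 0, 5.24 and 1.94 CPM in astrocytes (6.48 ± 0.62, edgeR adjusted p = 0.000226).

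Fabp7 was at 141, 643 and 300 CPM in astrocytes and higher in OPCs (2.59 ± 0.38, edgeR adjusted p = 0.00212). Brevican (Bcan) ran the other way, with 411, 467 and 396 CPM in OPCs and 683, 628 and 784 CPM in astrocytes (-1.09 ± 0.29, edgeR adjusted p = 0.0306). In the matrix list 7 of 18 tested genes rose and 6 fell, and in the receptor list 5 of 12 rose and 4 fell. Secreted factors gave 1 higher and 7 lower of 14, with Apoe, Cst3 and Clu among those that fell. Apoe was at 24415, 25126 and 14022 CPM in astrocytes (-3.91 ± 0.46, edgeR adjusted p = 0.000786). The counts that rose were 6 of 18 matrix genes (Sulf2 did not pass) and 4 of 11 receptor genes (Gria4 was not tested) without the 2 cells of library 1. Ptn, Mdk and Serpine2 did not pass (adjusted p of 0.228, 0.349 and 0.989, edgeR).

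Growth factor receptors were lower in OPCs than in astrocytes for 7 of 15 tested and higher for 3, or 7 and 2 of 14 without the 2 cells of library 1. Fgfr3, a receptor of astrocytes, had 2 UMIs in OPCs and 663 in astrocytes, a pooled level 38.5 times higher in astrocytes (95% exact counting interval 10.6 to 319). Ntrk2, the BDNF receptor, was at 294, 277 and 281 CPM in OPCs against 1777, 884 and 1191 CPM (-2.42 ± 0.33, edgeR adjusted p = 0.00166). All 5 tested strict cell-cycle genes were higher in OPCs, a direction again set by the filter on low counts. Pbk and Rrm2 had 0 UMIs in astrocytes, so OPCs were at least 86.1-fold and 66.0-fold higher (floor of 3 UMIs over the class). Tmem108 and 2810417H13Rik were at least 100.4-fold and 181-fold higher by the same floor. Fam107a, an astrocyte gene, and Aldh1l1, a folate enzyme used as an astrocyte marker, had 0 UMIs in OPCs and were at least 38.3-fold and 12.6-fold lower. Ribosomal protein genes were higher for 7 of 31, and for 2 without the 2 cells of library 1.

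Against neurons, 2141 of 6992 genes differed (30.6%), 631 higher in OPCs (9.02%) and 1510 lower (21.6%). The OPC sums are again the same. Without the 2 cells of library 1, 1922 genes passed, 1771 of them among the 2141, and the share higher in OPCs moved from 29.5% to 38.0% while the median of all genes tested moved from -0.50 to -0.27. DESeq2 called 1332 genes, and leaving out any 1 library left edgeR with 0 of them, although 2706, 2008 and 1273 genes then had an unadjusted p under 0.05 and DESeq2 called 799, 815 and 424. Of 29 tested OPC genes 28 were higher, and Kcnk1 did not pass. This was 27 of 28 without the 2 cells, as Afap1l2 was no longer tested.

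Most neurotransmitter receptor genes were lower in OPCs than in neurons. Of 26 tested 16 were lower in OPCs and 2 higher, Cacng4 and Shisa4. Gria2 was at 1602, 1269 and 1746 CPM in neurons, above each OPC value (-1.19 ± 0.32, edgeR adjusted p = 0.0128), and Grm5 at 550, 507 and 589 CPM (-1.20 ± 0.34, edgeR adjusted p = 0.0173). Grm5 did not pass without the 2 cells of library 1 (-0.89 ± 0.38, edgeR adjusted p = 0.0821), which left 15 lower, and Gria2 did (-0.99 ± 0.37, edgeR adjusted p = 0.0426). Gria1, another AMPA receptor subunit, had 2 UMIs in OPCs and 4788 in neurons, a pooled level 32.2 times higher in neurons (95% exact counting interval 8.90 to 266). Gria3 and Gria4 did not pass against neurons (-0.90 ± 0.40 and 0.29 ± 0.51). The NMDA receptor genes Grin1, Grin2a and Grin2b were lower in OPCs, with 2, 2 and 3 UMIs against 2731, 2449 and 4706.

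Cacng4 was at 92.2, 52.2 and 80.6 CPM in neurons, and OPCs were higher (1.96 ± 0.36, edgeR adjusted p = 0.00151). Of 25 ion channel genes 13 were lower in OPCs and 2 higher, Kcnj10 and Kcnip3. Of 32 adhesion genes 7 were higher and 9 lower. Only 11 channel genes were lower without the 2 cells of library 1, as Kcnma1 and Scn3a did not pass. The adhesion genes then gave 8 higher and 7 lower, so that the more frequent direction turned, with Epha5 and Nrcam lost and Opcml gained. Dscam and Pcdh15 were higher in OPCs than in each of the 3 classes.

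Genes of interferon response and antigen presentation were higher in OPCs than in neurons for 9 of 15 tested and lower for 0, and for 11 of 15 without the 2 cells of library 1. B2m, the light chain of MHC class I, was at 588, 1627 and 1875 CPM in OPCs and 119, 369 and 186 CPM in neurons (2.40 ± 0.36, edgeR adjusted p = 0.000362). Against mature oligodendrocytes and astrocytes B2m did not pass (-0.67 ± 0.27 and 0.18 ± 0.34). Ribosomal protein genes were higher than in neurons for 23 of 31, and for 29 without the 2 cells of library 1. Among immediate early genes Fos (2.05 ± 0.33, edgeR adjusted p = 0.000569) and Jun were higher in OPCs, and Egr1, Egr4, Arc and Junb lower. Egr4 and Arc had 0 UMIs in OPCs.

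Tested in all 3 comparisons were 3488 genes, and 136 of them (3.90%) were higher in OPCs each time, which is a description since the 3 share the OPC sums. Ranked by the smallest of the 3 differences, Pbk, Rrm2, 2810417H13Rik, Gpr17, Tmem255b, Top2a, Cdk1, Emid1 and Birc5 came first. All of these were low in the 3 reference classes and entered the tests only through high OPC sums. For Gpr17 the 3 log2 fold changes were 6.29, 7.41 and 7.92 (oligodendrocytes, astrocytes, neurons). They were 5.79, 6.43 and 7.83 without the 2 cells of library 1, and the smallest of them was below that of Top2a, whose values were then 6.10, 6.30 and 6.24. The list thus held cell-cycle genes beside genes of the OPC state. Ccnd1 was among the 136 with 5.42, 3.79 and 4.84, and the high-mobility group gene Hmgb2 with 4.24, 2.74 and 5.57.

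The FLiCRE features were read last, because the recorder needs a protease (TEV) and a transcription factor (tTA) in the same cell and mCherry is here taken to be its reporter. Of 85 OPCs, 12 held a UMI of any of the 3 features, 0, 7 and 5 in libraries 1 to 3. mCherry was in 4 OPCs, TEV in 6 and tTA in 2, each with 1 UMI a cell. Unthinned, mCherry was in 3.59% ± 3.66 of OPCs (SD, n = 3 libraries), against 5.90% of mature oligodendrocytes, 13.4% of astrocytes and 12.7% of neurons.

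At 1000 UMIs mCherry was in 0 of 57 OPCs, which allows up to 5.26%, against 2.17%, 4.75% and 5.72% in the 3 classes. OPCs were lower in 3 of 3 libraries each time (exact sign-flip permutation p = 0.25, adjusted 0.25, the smallest possible), and at 500 UMIs the share was 1.63% in OPCs against 1.04%, 1.93% and 2.96%. The shares in mature oligodendrocytes and astrocytes lay under this limit of 5.26%, and that in neurons lay close to it. The limit is the floor of 3 counts over the 57 cells pooled, while the class shares are means over libraries. It therefore does not tell OPCs from any class, and the test could not have reached 0.05 for any class. At 1000 UMIs TEV was in 2.47% ± 4.28 of OPCs, 1.95% of mature oligodendrocytes, 1.86% of astrocytes and 23.5% of neurons, and tTA in 1.23%, 1.41%, 2.82% and 13.2%. Endothelial cells and microglia, which gave the level in further non-neuronal cells, held TEV in 1.85% and 1.73%.

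In the fit against neurons all 3 features were lower in OPCs (edgeR). mCherry was at 0, 51.9 and 10.4 CPM against 161, 139 and 406 CPM (log2 fold change -3.68, edgeR adjusted p = 0.00145). TEV (-3.91, edgeR adjusted p = 9.29e-05) and tTA (-4.62, edgeR adjusted p = 8.8e-05) were lower as well. Against astrocytes mCherry did not pass (-1.69, edgeR adjusted p = 0.0924). One neuron held 1029 of the 2541 mCherry UMIs of its class. How much of this signal is RNA from other cells was not tested.

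**Figure D5:**
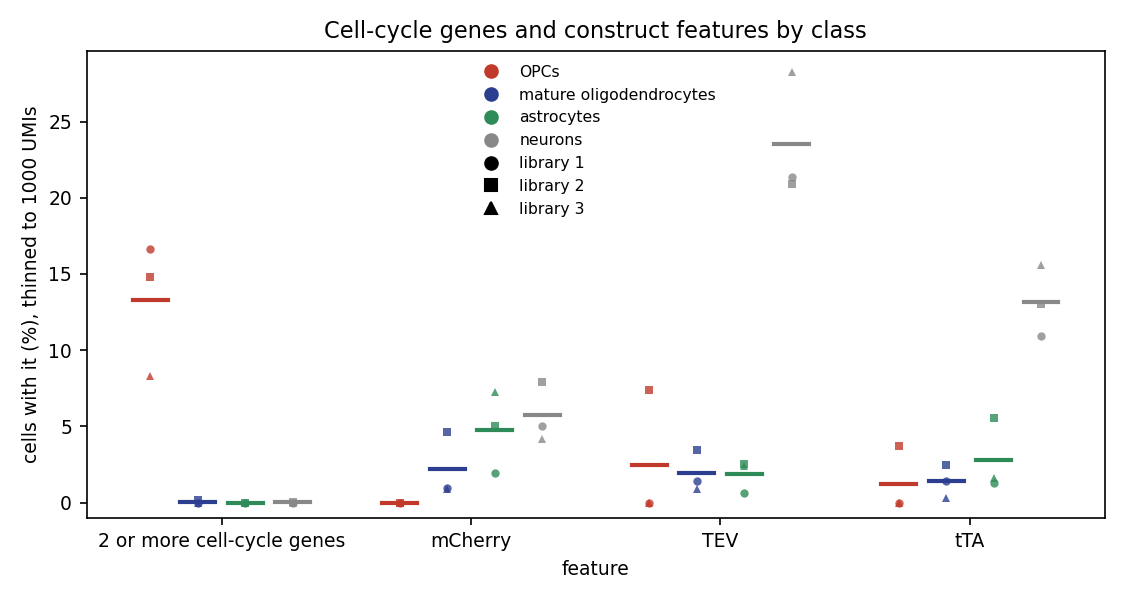
Share of cells (%) with 2 or more strict cell-cycle genes, mCherry, TEV or tTA after thinning to 1000 UMIs, 1 point per library with a bar at the mean, in OPCs and the 3 reference classes. Cell-cycle genes mark 8.33% to 16.7% of OPCs and at most 0.166% of the other 3 classes in any library, while TEV and tTA mark mainly neurons.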

How the data were processed

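Cells of 3 nucleus accumbens samples were profiled with 10x 3′ chemistry. The deposited matrix holds UMI counts per gene and cell, pooled by the authors over the samples with a barcode suffix for each library; the submitters' processing notes name Cell Ranger 3.0 and mm10, and further filters are not given in the sources used here. Of 11625 deposited cells, 10291 were kept (300 or more genes, no more than 20% of UMIs mitochondrial). Reference classes needed at least 3 UMIs of their markers, and 53 cells that met 2 reference gates were left out of the reference classes.

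Counts were summed per library and class and fitted with edgeR 4.0.16 (R 4.3.3, TMM, filterByExpr, quasi-likelihood test, library as block, Benjamini-Hochberg over all genes tested, threshold 0.05). Each fit left out the genes of the OPC gate, of its exclusions and of the gate of the class compared. Gate genes of the other classes stayed in. OPCs and their reference cells share a library, so the library pairs them. The CPM values carry no TMM scaling, so a fitted fold change can differ from the ratio of the CPM printed beside it. The SE beside a log2 fold change was derived from the test, as its absolute value over the square root of the F statistic. DESeq2 1.42.0, no block, other filters, gates, cell filters and depths, and each library left out, were alternatives. Doublets were kept; Scrublet (scanpy 1.11.5) scores served one alternative. The scripts were tested on simulated data.

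Genes named by size were the 12 highest and 12 lowest against mature oligodendrocytes (6 and 6 for the other classes) among those that passed, moved one way in 3 libraries and reached 50 CPM. From each list came up to 6 that passed and members with at least 100 CPM. A few others are named to account for small counts. Some genes that met these rules are not reported here, but stay in the counts. The members and lists were chosen with earlier results of these data known. Intervals (95%) and the floor of 3 counts cover counting error only.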

Additional observations from a re-analysis of the deposited data

How the results depend on the processing

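All main calls that could still be tested kept their sign under every alternative. Without the replicate block, 951, 891 and 2275 genes differed (mature oligodendrocytes, astrocytes, neurons), against 1127, 906 and 2141 with libraries paired. Thinning each reference sum to the depth of the OPC sum, which left fewer genes to test, gave 378, 328 and 598. One fit of all 4 classes gave 1523 genes against astrocytes, at most 10% mitochondrial UMIs gave 528 there, and DESeq2 gave 1332 against neurons; the cause was not tested. Leaving out a library in turn, edgeR called 0 to 141, 0 to 539 and 0 to 0 genes with 1 residual degree of freedom. In analyses added after seeing the data, DESeq2 called 179 to 510, 131 to 279 and 424 to 815, and the fit of all 4 classes 517 to 1377, 544 to 1361 and 771 to 2278.

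The share of calls higher in OPCs was 45.5%, 43.6% and 29.5%. It moved to 32.4% and 29.7% without the filter on low counts (mature oligodendrocytes, astrocytes), to 30.6% and 42.0% with all 4 classes in 1 fit (astrocytes, neurons), and against astrocytes to 32.8% with a gate of at least 3 UMIs and 32.3% in cells of at least 1000 UMIs. Thinned references gave 44.8% against neurons. The median log2 fold change of all genes tested, -0.09 against mature oligodendrocytes, was -0.24 with DESeq2 and -0.28 with all 4 classes. No named gene reversed.

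The share of OPCs with mCherry was 0% at 1000 UMIs, 1.63% at 500 UMIs and 3.59% unthinned. The share with 2 or more strict cell-cycle genes was 13.3% at 1000 UMIs, 6.62% at 500 UMIs and 11.6% to 15.7% with 1 library left out. The share of OPCs among kept cells, 0.957% on average, was 0.656% to 1.12% with 1 library left out. Depth limits the precision most in library 1, where 15 OPCs gave 17015 UMIs.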
